A study of Mus musculus with 8 samples.

Results

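Kupffer cells and other leukocytes of the liver do not use the albumin promoter, so a Cre driven by that promoter leaves their *Wtap* gene intact while hepatocytes lose theirs. A set of 46 genes known for expression in these cells was followed through m6ARIP-seq of whole liver, in which methylated RNA fragments are immunoprecipitated (IP) and read against the input RNA. The genes were chosen by name for their cell type. Peaks were listed for 37 of the 46 genes, among 11558 genes with a peak in at least 1 genotype. The controls were *Wtap* flox/flox mice, in which exon 4 of *Wtap* lies between loxP sites, and the knockouts were *Wtap*-HKO mice, which carry the same floxed alleles and *Alb*-Cre. All mice were C57BL/6 in the labels and of C57BL/6J background in the methods of the study, on normal chow and 8 weeks old. The 8 libraries comprised 2 IP and 2 input libraries of each genotype, and each replicate was a pool of livers from several mice. The deposited peak lists combine the replicates of a genotype, so no value below has an SD or a test across replicates, and differences are given as descriptions.

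N6-methyladenosine (m6A) is placed on messenger RNA in the nucleus by a writer complex, in which WTAP anchors the catalytic METTL3 and METTL14 subunits. The mark is typically dense around stop codons and in long internal exons, and it affects the decay, splicing and translation of the transcript. Kupffer cells are the resident macrophages of the liver sinusoids. They clear particles, complement-coated microbes and aged blood cells, and other phagocytes and lymphocytes join them when the liver is inflamed. In RNA of a whole tissue, more cells of a type and more RNA per cell cannot be told apart, and the peak lists give no level of the input RNA.

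Every gene of the set that had a peak in the control livers also had peaks in *Wtap*-HKO livers, and more genes had peaks only in the knockouts. In *Wtap* flox/flox livers 18 of the 46 genes (39.1%) had a peak, and in *Wtap*-HKO livers 37 (80.4%) did. The 19 genes with peaks only in *Wtap*-HKO livers made up 51.4% of the 37, beside 22.0% of all genes with a peak in either list. No gene of the set had a peak only in control livers, where 924 of the 11558 genes did. The remaining 9 genes had no peak in either list. They were *Adgre1*, *Itgam*, *Fcer1g*, *Coro1a*, *Trem2*, *Cd3e*, *Nkg7*, *Gzma* and *Cd79a*, and no peak listed under another name lay within their gene spans.

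The defining markers were thus listed unevenly. *Clec4f*, the lectin receptor that defines mouse Kupffer cells, had 2 peaks in each genotype. *Ptprc*, the pan-leukocyte phosphatase, had a peak only in *Wtap*-HKO livers, and *Adgre1*, the macrophage adhesion receptor, had none. Of the 5 lymphocyte genes only *Cd8a* was listed. A missing peak does not show that a transcript was absent. *Wtap* itself had 3 peaks in each list and a differential peak with a log2 fold change of -0.74. Peaks do not measure its expression, and they do not check the deletion of exon 4.

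**Figure D1:**
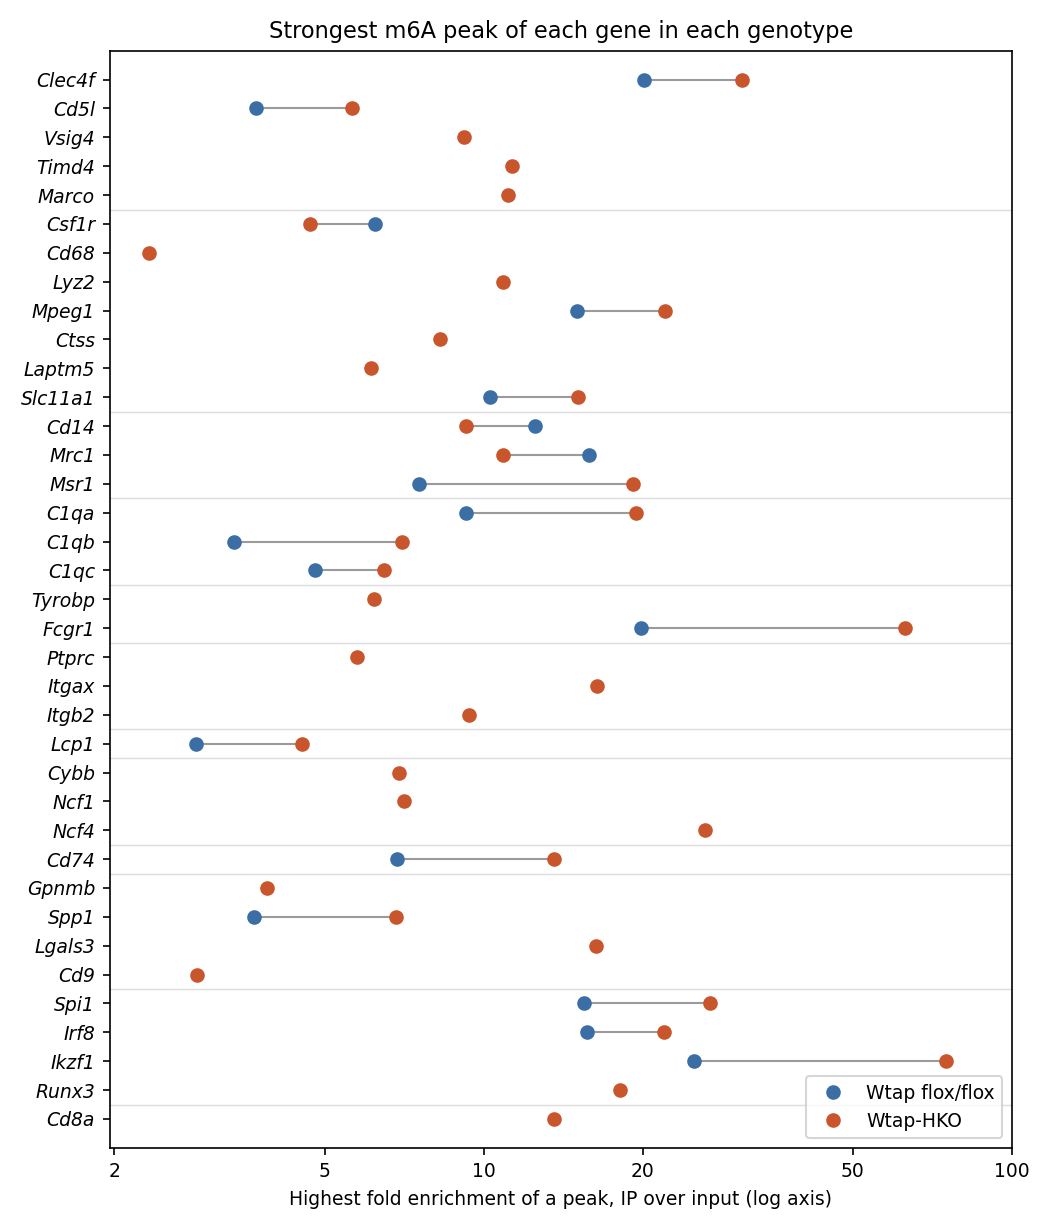
Highest fold enrichment (IP over input, log axis) of any peak of each of the 37 listed genes, grouped by role from Kupffer cell identity at the top to lymphocytes at the bottom, in *Wtap* flox/flox (blue) and *Wtap*-HKO (orange) livers. The 19 genes with an orange point alone had no control peak, and among the other 18 the orange point lies to the right for 15.

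Several of the peaks in *Wtap*-HKO livers reached the annotated start of the transcript, or opened within the bases just after it, where no control peak did. The windows below show 10 bases before and 20 bases from the RefSeq start of the gene (GRCm38.p6), 5′ to 3′, with capitals for the bases inside a *Wtap*-HKO peak. They were chosen because a *Wtap*-HKO peak enters the window while no control peak does. At the starts shown, the peaks of *Timd4*, *Spp1* and *Mpeg1* open downstream of the start base, and the others cover it. Another annotated start of *Spp1* (chr5:104436182-104436211) met the same rule and is not shown. There the *Wtap*-HKO peak covers the start base.
Cd5l (chr3:87357871-87357900, + strand): cctttggtcaTTTGATAAAGCTCCTACTGC
Timd4 (chr11:46810789-46810818, + strand): acagacacacaGATCCTATCAAAATGTCCA
Vsig4 (chrX:96293419-96293448, - strand): agaaactggcAGCTACCAGCACTTCCAGGT
Lyz2 (chr10:117282253-117282282, - strand): TTCTCTAGTCAGCCAGCAGCTGACCCAGCC
Mpeg1 (chr19:12460760-12460789, + strand): cagtaaaaagaaactaataCTGTGATTTCA
Laptm5 (chr4:130913306-130913335, + strand): AAGACTCCTTACTCAGAGCCTCCGAAGAGG
Spp1 (chr5:104435101-104435130, + strand): gggaggtctgagccaccAGCAGCTCACACT
Cd9 (chr6:125494741-125494770, - strand): cgtaaggagTGGCACTTTTTAAAAGTGGAG
The next pair of starts lay inside a peak in both genotypes and is shown for comparison.
Clec4f (chr6:83656097-83656126, - strand): AACATAGATCAGGCTCCCACTGTGTTTCAG
C1qc (chr4:136892895-136892924, - strand): TCACAGCTCTGAAACAGTATGTTCCTGTCT
The peak caller works along annotated exons, so a peak edge that falls exactly on the start, as in *Cd5l* and *Vsig4*, follows the annotation.

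All 5 Kupffer cell identity genes had peaks in *Wtap*-HKO livers, and 2 of them had peaks in the controls. *Clec4f* kept both of its peaks. The internal peak at chr6:83652449-83653045 had a fold enrichment of 20.1 in control livers, and the overlapping *Wtap*-HKO peak, which reached from 83652360 to 83654724 over 983 exonic nt, had 30.8. The peak at the transcript start had 4.49 in the controls and 4.33 in the knockouts. Thus the internal peak was higher and longer in *Wtap*-HKO livers while the start peak differed little in enrichment.

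*Cd5l* encodes a soluble scavenger protein secreted by macrophages. Its pair of control peaks had fold enrichments of 3.71 and 2.38, and the overlapping *Wtap*-HKO peaks had 5.63 and 3.93. The stronger *Wtap*-HKO peak joined 5 exonic blocks and ran from the gene's first base through 1108 exonic nt. *Vsig4*, a complement receptor, had 2 peaks in the knockouts alone, with fold enrichments of 9.19 at the start and 1.82 near the 3′ end. *Timd4*, which binds phosphatidylserine on apoptotic cells, had 1 peak at 11.3, and the scavenger receptor gene *Marco* had 3, from 2.69 to 11.1, which together covered 1276 exonic nt.

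Of the 8 pan-macrophage genes, 3 had peaks in both genotypes, 4 only in *Wtap*-HKO livers, and *Adgre1* in neither. *Mpeg1*, which encodes the pore-forming protein of the phagosome, was covered over most of its length in both genotypes. Its 4 control peaks had fold enrichments of 7.11, 15, 3.57 and 3.66 along the gene. The 3 peaks nearest the start were matched by a single *Wtap*-HKO peak of 3528 exonic nt at 22.1, and the last by a peak at 4.98. Fewer peaks in the knockouts here meant longer ones, since the covered length was 3650 nt in control and 4187 nt in *Wtap*-HKO livers.

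*Csf1r*, the receptor for the growth factor that macrophages depend on, moved in opposite directions at its peaks. The peak over its 3′ end at chr18:61130411-61131010 had a fold enrichment of 2.72 in controls, and the overlapping *Wtap*-HKO peak had 4.41. A peak further downstream, at chr18:61131909-61132149, had 6.23 in controls and 4.7 in knockouts. The latter lies beyond the RefSeq span of *Csf1r* and within that of *Hmgxb3*, and no source used here says that the libraries kept the strand, so its gene is uncertain. Another *Wtap*-HKO peak, at 3.36 near the 5′ end, had no control counterpart. *Slc11a1*, a metal ion transporter of the phagosome, had a 3′ peak at 10.3 in the controls and 15.1 in the knockouts, where a second peak at 6.46 lay near the 5′ end.

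*Lyz2*, *Ctss*, *Cd68* and *Laptm5* had peaks in *Wtap*-HKO livers alone. *Lyz2*, the macrophage lysozyme, had a peak over its start at 10.9 and a weak one near the 3′ end at 1.56, though reads could be split with its near-identical neighbour *Lyz1*, which was not examined, and its values are uncertain. The lysosomal protease gene *Ctss* had 1 peak at 8.28 and the lysosomal membrane protein gene *Cd68* 1 peak at 2.33, the weakest top peak in the set. *Laptm5*, a lysosomal membrane protein of blood cells, had peaks at 6.12 and 2.63. The stronger lay over the RefSeq start shown above, 414 nt from the outermost base of the gene, and also within the span of the gene model *Gm38599*.

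The scavenger and pattern receptors were all listed in both genotypes, and they held the clearest cases of lower enrichment. *Mrc1*, the mannose receptor, had a 5′ peak at 15.8 in controls and 10.9 in knockouts, where it was also wider, with 151 exonic nt in the former and 509 in the latter. Its 3′ peak went the other way, with 4.85 in controls and 9.45 in knockouts. *Cd14*, the co-receptor for lipopolysaccharide, which hepatocytes also make, had peaks at 12.5 and 3.04 in controls and 9.26 and 2.68 in knockouts. It also had a *Wtap*-HKO peak at 8.13 near its start. *Msr1*, the macrophage scavenger receptor, had 3 control peaks at 5.86, 6.84 and 7.55, and the overlapping *Wtap*-HKO peaks had 8.68, 19.2 and 6.91. An additional *Wtap*-HKO peak of *Msr1* had 8.49. So 2 of its 3 shared peaks were higher in the knockouts and the most 5′ of them was slightly lower.

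*C1qa*, *C1qb* and *C1qc*, whose products form the recognition subunit of complement and come mostly from macrophages, lie side by side on chromosome 4. Control peaks of *C1qa* and of *C1qc* were merged in *Wtap*-HKO livers. The pair of control peaks of *C1qa*, at 9.28 and 4.83, was replaced by 1 peak at 19.4 over 1040 exonic nt. *C1qb* had 1 peak in each list, at 3.37 over 735 exonic nt in controls and at 7.01 over 1059 in knockouts. *C1qc* had control peaks at 1.78, 4.79 and 3.51. A *Wtap*-HKO peak at 6.49 spanned the 2 nearest the 3′ end, and the peak over the start was 3.58. Enrichment was therefore higher over most of this locus, with the *C1qc* start the least different.

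Among the Fc receptors and their adaptors, *Fcgr1*, the high-affinity receptor for immunoglobulin G, held a strong peak in both genotypes. At chr3:96284188-96284515 its fold enrichment was 19.9 in controls, and the overlapping *Wtap*-HKO peak reached 62.9. The knockouts also had peaks of *Fcgr1* at 6.17 at the 3′ end and 3.56 at the 5′ end. *Tyrobp*, the signalling adaptor of many myeloid receptors, had a 5′ peak at 6.19 in the knockouts alone.

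The integrin and pan-leukocyte genes had no peak in control livers. In *Wtap*-HKO livers *Ptprc* had a peak at 5.76 over 331 exonic nt near its 3′ end. *Itgax*, an integrin chain of dendritic cells and macrophages, had 1 at 16.4, also near the 3′ end. *Itgb2*, the common chain of the leukocyte integrins, had 9.4 at the 5′ end and 2.36 at the 3′ end. The 3 phagocyte oxidase genes were likewise listed only in the knockouts. Of these, *Ncf4*, a cytosolic regulator of the oxidase, had peaks at 26.2 and 7.42. *Ncf1*, its organiser subunit, had 7.08 and 2.82, and *Cybb*, the catalytic subunit, had 3 peaks from 3.09 to 6.91.

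*Lcp1*, the actin-bundling protein of leukocytes, differed little in coverage, with 722 nt in controls and 812 nt in knockouts. Its pair of 3′ peaks had 2.85 and 2.38 in controls and 4.53 and 2.7 in knockouts. *Cd74*, the chaperone of class II antigen presentation, had a 5′ peak at 6.86 in controls and 13.6 in knockouts, with a weak 3′ peak at 1.86 in the latter only.

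Among the genes of lipid-associated macrophages, *Spp1*, the secreted phosphoprotein osteopontin, was the only gene listed in both genotypes. Its shared peak had 3.68 in controls and 4.85 in knockouts, and the peak just after its start, shown above, had 6.83 in the knockouts alone. *Lgals3*, a galactoside-binding lectin, had a *Wtap*-HKO peak at 16.3, *Gpnmb*, a lysosomal glycoprotein, 1 at 3.89, and *Cd9*, a tetraspanin, 1 at 2.87. The *Cd9* peak also overlaps the spans of the gene models *Gm28809* and *Gm26728*. *Spp1*, *Lgals3* and *Cd9* are also made by bile duct cells, so they are weak markers of leukocytes.

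The highest enrichment of the set belonged to a transcription factor gene. *Ikzf1*, a regulator of lymphoid and myeloid development, had a peak near its 3′ end at 25 over 300 exonic nt in controls and 75 over 720 in knockouts. *Spi1*, the master regulator of macrophage fate, had a peak at its 3′ end at 15.5 in controls and 26.8 in knockouts, where it also had peaks at 18.6 and 3.15. *Irf8*, which acts with it in myeloid cells, had 15.7 and 22 at the shared peak, with further *Wtap*-HKO peaks at 7.1 and 2.42. *Runx3*, a regulator of cytotoxic lymphocytes, had 1 peak at 18.1 in the knockouts alone. *Cd8a*, the co-receptor chain of cytotoxic T cells, had 3 peaks at 13.6, 6.78 and 4.97 in the knockouts alone, with false discovery rates up to 1.7e-04.

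For the 19 newly listed genes as a group, the strongest peak of a gene had a median fold enrichment of 9.19 and a range from 2.33 to 26.2. Of these genes, 10 had 1 peak, 6 had 2 and 3 had 3, and the peaks of a gene covered 175 to 1276 exonic nt, with a median of 329. These genes are in the group because a peak passed the limit in *Wtap*-HKO livers alone, so the values carry that selection. Over all 44 *Wtap*-HKO peaks of the set without a control counterpart, the median was 6.18, with a range from 1.34 to 26.2. The shared *Wtap*-HKO peaks of the set had a median of 7.84. For all genes these medians were 6.15 and 5.84.

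The transcript length under peaks was larger in the knockouts for each of the 18 genes listed in both genotypes. This was 18 of 18 genes, beside 51.7% of all 8096 genes with peaks in both lists. The median ratio of *Wtap*-HKO to control length was 1.88 for these genes and 1.03 for all genes. In total their peaks covered 12767 exonic nt in control and 21646 nt in *Wtap*-HKO livers. The number of peaks was higher for 10 genes, equal for 5, and lower for *Mpeg1*, *C1qa* and *C1qc*, where control peaks had merged.

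**Figure D2:**
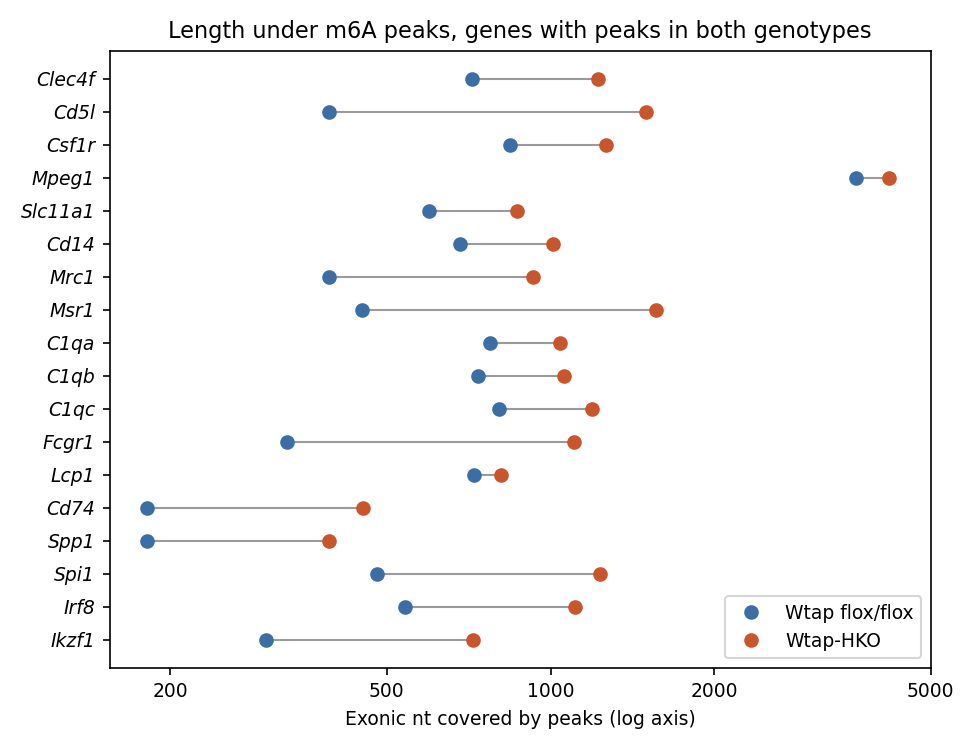
Exonic length (nt, log axis) covered by m6A peaks of the 18 genes with peaks in both genotypes, in *Wtap* flox/flox (blue) and *Wtap*-HKO (orange) livers. The orange point lies to the right for all 18 genes, by the least for *Lcp1* and *Mpeg1*.

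The strongest peak of a gene was higher in *Wtap*-HKO livers for 15 of the 18 genes, beside 54.7% of all genes with both, and lower for *Csf1r*, *Cd14* and *Mrc1*. For *Csf1r* this rests on the downstream peak of uncertain gene, and the peak over its 3′ end was higher (2.72 in controls, 4.41 in knockouts). The median difference was 0.64 on the log2 scale, against 0.11 for all genes.

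At the level of peaks, all 32 control peaks of the set overlapped a *Wtap*-HKO peak, sharing at least 1 exonic base. Of all 15635 control peaks, 19.9% overlapped none. Of the 72 *Wtap*-HKO peaks of the set, 28 (38.9%) overlapped a control peak, beside 64.7% of all 19185. The other 44 had no control counterpart. Of the 44, 31 belonged to the newly listed genes and 13 to genes with control peaks. Median fold enrichment of the set was 5.36 in control and 6.63 in *Wtap*-HKO livers, close to the 5.51 and 5.93 of all peaks. The share of peaks made of more than 1 exonic block was 18.8% in control and 48.6% in *Wtap*-HKO livers, against 14.5% and 19.2% over all peaks.

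Enrichment can be compared peak by peak where peaks overlap 1 to 1 between the lists. The paired peaks need not cover the same stretch, and the *Wtap*-HKO peak was the longer in most pairs. A *Cd5l* pair, for instance, had 270 exonic nt in controls and 1108 in knockouts. There were 25 such pairs in 17 of the genes. The *Wtap*-HKO enrichment was higher in 19 of them (76%), beside 50.4% of all 10499 pairs. The median log2 ratio was 0.57, or 1.48 times, and the pairs ranged from -0.54 to 1.66. The median over all pairs was 0.01. The highest ratios belonged to *Fcgr1* at 1.66, *Ikzf1* at 1.58, *Msr1* at 1.49 and *C1qb* at 1.06. The 6 lower pairs were the 5′ peak of *Mrc1*, both peaks of *Cd14*, the downstream peak listed for *Csf1r*, and the most 5′ peaks of *Msr1* and *Clec4f*.

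**Figure D3:**
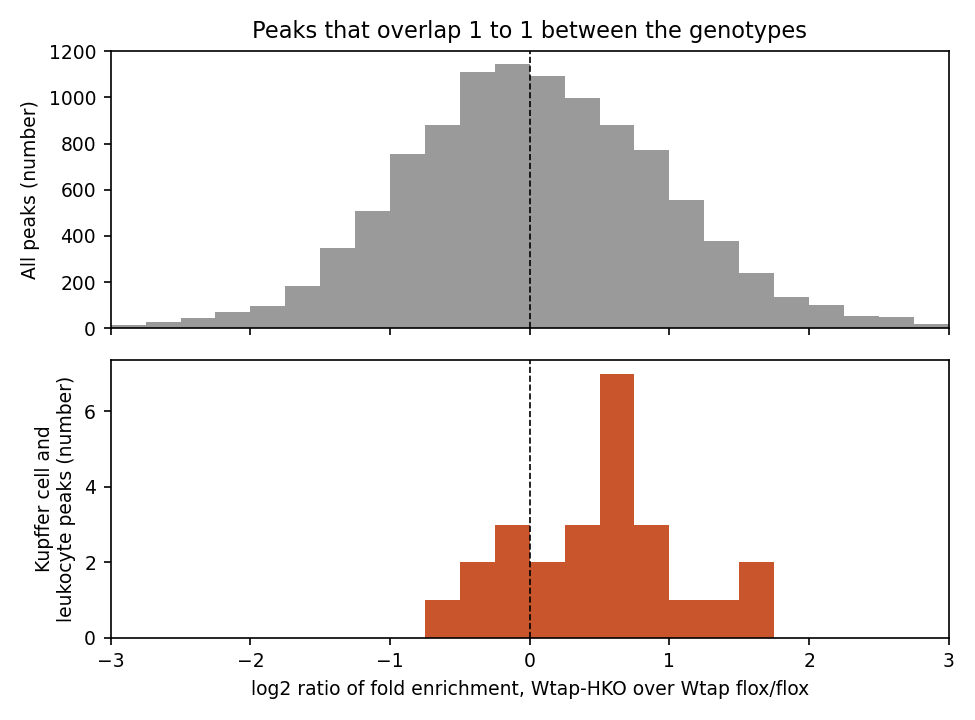
Number of peaks (vertical axes) by the log2 ratio of fold enrichment, *Wtap*-HKO over *Wtap* flox/flox, for all 10499 peaks that overlap 1 to 1 (grey) and for the 25 of Kupffer cell and leukocyte genes (orange). Of the 25, 19 lie right of the dashed line at 0, and the grey distribution centres near it.

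The deposited list of differential peaks, which the peak caller made from the libraries of both genotypes together, held 9 peaks in 9 genes of the set, all with higher enrichment in *Wtap*-HKO livers. That is 24.3% of the 37 genes with a peak, beside 12.7% of all genes with a peak for the higher direction. None was lower, where 16.8% of all genes had a lower peak. The genes were *Laptm5* (log2 fold change 2.0), *Fcgr1* (1.36), *Ptprc* (1.27), *Spi1* (1.04), *Tyrobp* (0.98), *C1qb* (0.84), *C1qa* (0.77), *Csf1r* (0.67, the peak over its 3′ end) and *Mpeg1* (0.59, the last peak of the gene). They thus comprise complement, Fc receptor signalling, lysosome and leukocyte identity genes and a transcription factor gene. Their median of 0.98 was below the 1.17 of all 1556 higher peaks of the list.

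With a log2 fold change over 1 the count was 4 (*Laptm5*, *Fcgr1*, *Ptprc* and *Spi1*), or 10.8% of the 37 genes, beside 8.30% of all genes, which is near the background. In the lower direction it was 0, beside 8.91%. By position, 6 of the 9 differential peaks overlapped a control peak, and those of *Ptprc*, *Laptm5* and *Tyrobp* did not. Conversely, 7 of the 32 shared control peaks of the set overlapped a higher differential peak, beside 8.81% of all shared control peaks, and none overlapped a lower one, beside 13.3%. Of the 44 *Wtap*-HKO peaks with no control counterpart 3 overlapped a higher differential peak, beside 9.58% of all such peaks. Most of the 44 were therefore not in the differential list, and the same held for all such peaks.

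Along the gene span, peaks at the 5′ end were more frequent in the knockouts. The 5′ end here is the outermost base of the RefSeq span, which is not always the start used for the windows. Of the 31 control peaks that could be placed in a RefSeq span, 5 (16.1%) had an edge within 200 nt of the 5′ end of the gene. In *Wtap*-HKO livers 23 of 71 (32.4%) did. Over all peaks these shares were 10.6% and 18.1%, so the same direction was seen in the whole lists. The 23 peaks belonged to 23 genes, of which 18 had no 5′ end peak in controls, and their fold enrichments ran from 2.33 to 22.1. Peaks of *Laptm5* and *Cybb* that enter the first 50 bases of an annotated start are not among them. They lay 414 and 18475 nt from the outermost base. Among *Wtap*-HKO peaks without a control counterpart, 31.8% of those of the set and 27.2% of all lay at the 5′ end. Among shared *Wtap*-HKO peaks, 33.3% of those of the set (9 of 27) and 13.2% of all did. In the set, the 5′ share was thus similar for shared and unshared *Wtap*-HKO peaks. At the 3′ end the shares were 29% of the control and 23.9% of the *Wtap*-HKO peaks of the set, against 9.93% and 8.19% over all peaks.

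**Figure D4:**
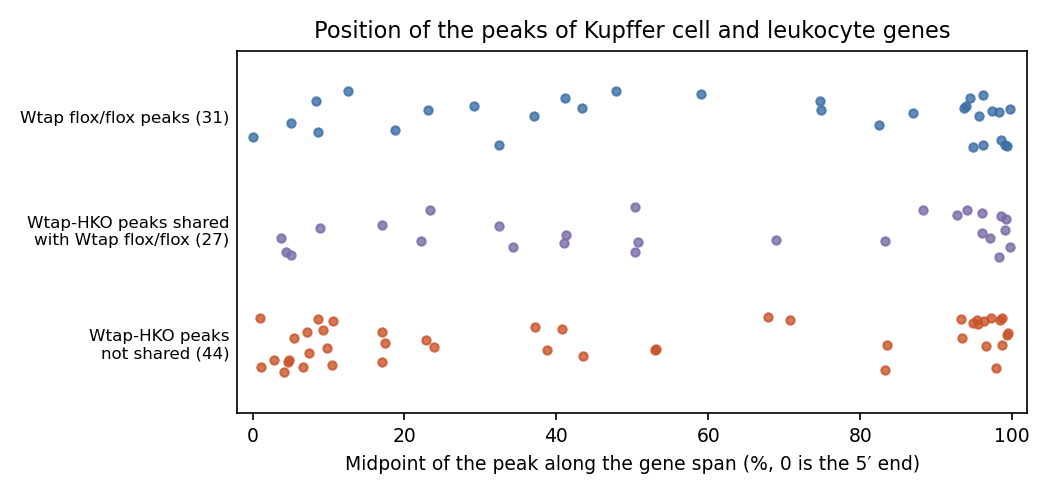
Position of peak midpoints of Kupffer cell and leukocyte genes along the gene span (percent, 0 at the 5′ end), for the 31 placed control peaks, the 27 placed *Wtap*-HKO peaks shared with them and the 44 not shared. Vertical scatter within a row has no meaning. Points gather at the 3′ end in each row, and midpoints of the unshared *Wtap*-HKO peaks also gather near the 5′ end. By peak edge, 9 of the 27 shared *Wtap*-HKO peaks also lay within 200 nt of the 5′ end.

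RefSeq start windows were found for 36 of the 46 genes, with 43 windows in all. GGAC, the core of the motif that the writer complex prefers, was looked for on the transcribed strand of the first 50 bases. It stood in 9 of the 43 windows (20.9%) and in 18.9% of the windows of all genes. Of the 17 windows in which a *Wtap*-HKO peak entered the first 50 bases, 6 (35.3%) held it. Among them were those of *Cd5l*, *Laptm5*, *Clec4f* and *C1qc*, though the shorter stretches printed above do not contain it. Antibodies to m6A also bind a related dimethylated adenosine next to the cap. An A was the first base in 9 of the 17 windows (52.9%), in 37.2% of the 43 and in 34.4% of all windows. These letters are descriptions of the windows, and their part in the peaks was not tested.

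Other genes of the same cells were described by a list of 100 leukocyte genes that shares no member with the set. Of these, 93 had a peak, 36 of them (38.7%) only in *Wtap*-HKO livers, beside 22.0% of all genes with a peak, and none only in controls. All 109 of their control peaks overlapped a *Wtap*-HKO peak, beside 80.1% of all control peaks. Of their pairs, 57 of 66 were higher in the knockouts, beside 50.4% of all pairs, with a median log2 ratio of 0.84. Of their placed *Wtap*-HKO peaks, 12% (23 of 191) lay at the 5′ end. That share was below the 32.4% of the set and the 18.1% of all peaks. Of their placed control peaks 5.61% (6 of 107) lay there, so the share was larger in the knockouts here too. The differential list held a higher peak for 21 of the 93 genes, beside 12.7% of all genes with a peak. It held a lower peak for 2, beside 16.8% of all genes. These were *Cd72* (-0.71), a B cell receptor inhibitor, and *Cebpa* (-0.29), a factor that hepatocytes also express strongly. The midpoint of the *Cd72* peak lay at 100% of its gene span. The peak thus runs past the 3′ end, and its gene is uncertain. *Cebpa* was named after its value was seen. Among the higher peaks with the smallest p-values were those of *Slc40a1* (0.60), the iron exporter, and *Maf* (1.13 and 1.27), a transcription factor of macrophages. Others were *Arhgap45* (1.49), a GTPase-activating protein, the kinase gene *Syk* (1.34), the phosphatase gene *Inpp5d* (1.44) and the immune receptor gene *Nfam1* (1.72, its peak with the smallest p-value).

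Genes of other liver cells differed in how far they followed this pattern. Of 33 listed genes of endothelial and stellate cells, which also keep *Wtap*, 8 (24.2%) had peaks only in *Wtap*-HKO livers. That is near the 22.0% of all genes with a peak. Of their 30 pairs 27 were higher, beside 50.4% of all pairs, with a median log2 ratio of 0.66. The differential list held a higher peak for 5 of these 33 genes and a lower peak for none, beside 12.7% and 16.8% of all genes with a peak. Of 31 listed genes for proteins secreted by hepatocytes, the cells that lose *Wtap*, 5 (16.1%) had peaks only in *Wtap*-HKO livers. Their pairs were split, with 20 of 38 higher, beside 50.4% of all pairs, and a median of 0.06. At the 5′ end lay 27.7% of the placed control peaks and 33.3% of the placed *Wtap*-HKO peaks of hepatocyte genes. For endothelial and stellate genes these shares were 2.5% and 16.7%, and for all peaks 10.6% and 18.1%. The differential list held higher peaks for 19 of these 31 hepatocyte genes and lower peaks for 13, with 5 genes in both groups. Over all genes with a peak these shares were 12.7% and 16.8%. These lists are small and were not tested against each other. Neither higher enrichment nor a larger share of peaks at the 5′ end was therefore shown to be particular to leukocytes.

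**Figure D5:**
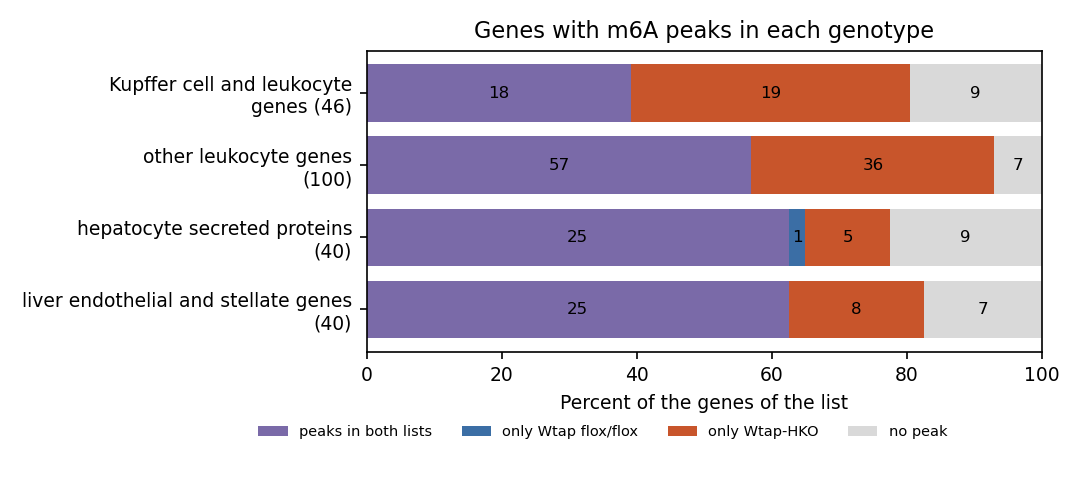
Percent of the genes of each list (horizontal axis) with m6A peaks in both genotypes (purple), only in *Wtap* flox/flox (blue), only in *Wtap*-HKO (orange) or in neither (grey), with the number of genes in each segment. Kupffer cell and leukocyte genes have 19 of 46 in orange, other leukocyte genes 36 of 100, endothelial and stellate genes 8 of 40 and hepatocyte secreted proteins 5 of 40.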

How the data were processed

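m6ARIP-seq was done on poly(A)+ RNA from whole liver with an m6A antibody, and 150 bp paired-end reads were sequenced. The authors aligned clean reads to GRCm38 with BWA 0.7.12, which does not split reads over introns, and called peaks with exomePeak. The submitters' processing notes also name fastp 0.19.11, without its role. The fold enrichment of a peak, as deposited by the authors, is a ratio of IP over input. False discovery rates and p-values were deposited as log10 scores from the peak caller. The differential list, also deposited by the authors, gives log2 fold changes between the genotypes, which are printed as listed and were not tested again. Replicates are combined and no reads are given, so depth is unknown and no counting interval can be stated.

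Counting used pandas 2.3.3 and numpy 2.4.6 under Python 3.11.15, and drawing used matplotlib 3.10.9. Genes were matched by the symbol in the lists and placed with RefSeq (GRCm38.p6). A peak with 1 or more exonic bases in common with a peak of the other genotype, strand for strand, was shared. The counting was checked on simulated lists. Genes named with full values were those with a differential peak, *Clec4f*, *Adgre1*, *Ptprc* and the strongest gene of each role, with the others given more briefly, up to 8 other leukocyte genes by smallest p-value, and *Wtap*. A result under this rule is not reported here. The genes and the lists were chosen with earlier results of these data known. Alternatives were a minimum fold enrichment of 2, false discovery rates under 0.01 and 1e-05, a 50% overlap, whole spans, all overlapping pairs, other distances to the ends and a *Wtap*-HKO list reduced to the size of the control list. Peak sequences needed a genome, which was not used here.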

Additional observations from a re-analysis of the deposited data

How the results depend on the processing

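No paired analysis was possible because the deposited lists combine the replicates, and leaving out a replicate was not possible for the same reason. Of 38 alternative values, 37 stayed near the reported ones, though several of these could not have moved. The exception was the number of differential peaks higher in *Wtap*-HKO livers, which was 9 at any log2 fold change and 4 with an absolute log2 fold change over 1. By construction, the stricter limit keeps fewer peaks. The largest log10 false discovery rates in the peak lists were -2.22 and -2.01, so the loosest limit on them removed no peak. The 9 differential peaks had false discovery rates up to 1.5e-04, already under the 0.001 tried for them. The count of lower ones was already 0. The lowest fold enrichment in the 1 to 1 pairs was 2.38, above the minimum tried. Such unchanged values do not show that the results are robust. With the *Wtap*-HKO list reduced to as many peaks as the control list, or with false discovery rates under 1e-05, both chosen after seeing the data, genes with a *Wtap*-HKO peak numbered 36 and those with peaks only there 18. A 50% overlap lowered the shared part of *Wtap*-HKO peaks from 38.9% to 31.9%. Without reads per library, a peak missing from a list cannot be separated from one under the limit of detection.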
